A study of Mus musculus with 6 samples.

Results

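Utx, the protein product of Kdm6a, removes methyl groups from lysine 27 of histone H3 (H3K27), and this account describes how the other enzymes and complexes that write, erase and bind histone lysine methylation were expressed in CD8 T cells in which Utx had been targeted. The genes were taken from a list of 57 histone lysine methyltransferases, lysine demethylases and Polycomb subunits, and all 57 reached at least 1 CPM (reads of a gene per 1000000 reads of its library) in 3 or more of the 6 libraries, out of 10590 genes that did so and 25655 genes listed. Of the 57, 56 reached 1 CPM in all 6 libraries. The exception was Pcgf1, which reached it in 5.

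Splenic CD8 T cells came from female C57BL/6 mice, labelled WT or Utx knockout (Utx KO), with 3 biological replicates of each genotype. Naive cells (low for CD44, high for CD62L) were stimulated for 2 days with plate-bound antibodies to the T-cell receptor beta chain (3 µg/ml) and to CD28 (1 µg/ml) together with interleukin 2 (10 ng/ml), then kept for 3 days in interleukin 2 alone, so that both genotypes were collected 5 days after activation. Values of 3 libraries are given in the order of replicates 1, 2 and 3. The comparison asks how expression in activated CD8 T cells changes when Utx is targeted. The form of the Kdm6a allele, any Cre driver, the age of the mice and whether replicates were separate animals are left unstated by the labels, and the p-values therefore reflect only how far these samples spread, which may be technical. The recovered reads numbered 1619085 to 2529113 per library, a depth at which a count of 0 allows up to 3 reads, or 1.19 to 1.85 CPM. This limit covers counting error only. Genes expressed by CD8 T cells were present (8 of 8 tested, summed level 2199 to 2290 CPM for WT against 2440 to 2497 CPM for Utx KO). Only Cd8a and Cd8b1 among them separate CD8 from other T cells, so the sum does not measure CD8 identity. Of the 8, 4 rose (Cd3d, Cd3e, Cd5 and Cd8b1) and 1 fell (Cd2), where 5.28% of all tested genes rose and 5.51% fell. Summed levels of markers of other cells were at most 17.5 CPM for CD4 T cells, 5.47 CPM for B cells, 12.4 CPM for macrophages or monocytes, 11.9 CPM for dendritic cells, 1.85 CPM for NK cells and 3.09 CPM for erythroid cells, and 0 for neutrophils, with Cd4, Cd79a, Ms4a1, Pax5, Adgre1, Cd14, Lyz2, Flt3, Siglech, Ncr1, Klra8, Alas2 and Hbb-bs at 0 in all libraries. Other markers of these lists were above 0 in every library. Foxp3 ranged over 6.79 to 10.4 CPM and Zbtb7b reached 7.12 CPM (CD4 T cells). Cd79b (B cells) ranged over 0.571 to 5.47 CPM. Cd68 (macrophages or monocytes) ranged over 4.61 to 10.3 CPM and Zbtb46 (dendritic cells) over 1.99 to 9.88 CPM. None of these genes passed the test. Further markers were above 0 in some libraries only. In bulk RNA, fewer cells of a type and less RNA per cell cannot be told apart.

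Methyl groups on H3K27 are placed by Polycomb repressive complex 2 (PRC2), whose catalytic subunit is Ezh2 or its relative Ezh1, and are read by Polycomb repressive complex 1 (PRC1), which also places ubiquitin on histone H2A. Both complexes keep genes silent. Utx and its paralog Kdm6b (Jmjd3) erase the mark, and Utx is itself a subunit of the COMPASS-like complexes built around Kmt2c and Kmt2d, which methylate H3K4 at enhancers. In T cells, Ezh2 is known for silencing genes of other fates during effector differentiation, and the H3K27 demethylases for opening effector and cytokine genes.

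Among the 57 genes, Kdm6a and the PRC2 partner Jarid2 fell in Utx KO, and the demethylases Kdm5b and Kdm2b rose. These 4 are 7.02% of the list, against 10.8% of all tested genes that changed at an adjusted p under 0.05 (5.28% rose and 5.51% fell). No gene grouped under COMPASS, the PRC2 core or PRC1 passed the test. Kdm2b, which is also a subunit of a PRC1 variant, is counted with the demethylases. The groups did not overlap for 12 of the 57 genes (8 with Utx KO above and 4 below), or 21.1%, against 26.5% of all tested genes (14% above and 12.6% below), and 13 (22.8%) had an unadjusted p under 0.05, against 22.7%. These shares lie near or below the background. The 57 log2 fold changes had a median of 0.02, beside 0.01 over all tested genes. Tests were made with limma on log2(CPM + 1) over all 10590 genes, with p-values adjusted by the Benjamini-Hochberg method, and fold changes are on that scale.

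The levels of the 57 genes spanned more than their changes. Because the libraries count about a single tag at the 3' end of each transcript, CPM values of different genes can be set side by side without correction for length. Suz12, the PRC2 subunit that holds the complex together, had the highest mean of the list, 634 CPM over the 6 libraries, a level at or above 97.9% of tested genes. It was followed by Kmt2e at 416, Ezh2 at 372, Rbbp4 at 352 and Rbbp7 at 255 CPM. Kdm6a (41.0 CPM) and Kdm6b (26.2 CPM) ranked 34 and 42 of the 57, at or above 63.7% and 52.3% of tested genes. The lowest were the PRC1 subunits Ring1 (4.11 CPM) and Pcgf1 (2.55 CPM), for which a few reads decide a value. The median mean level was 59.8 CPM in the list and 24.2 CPM over all tested genes.

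**Figure D1:**
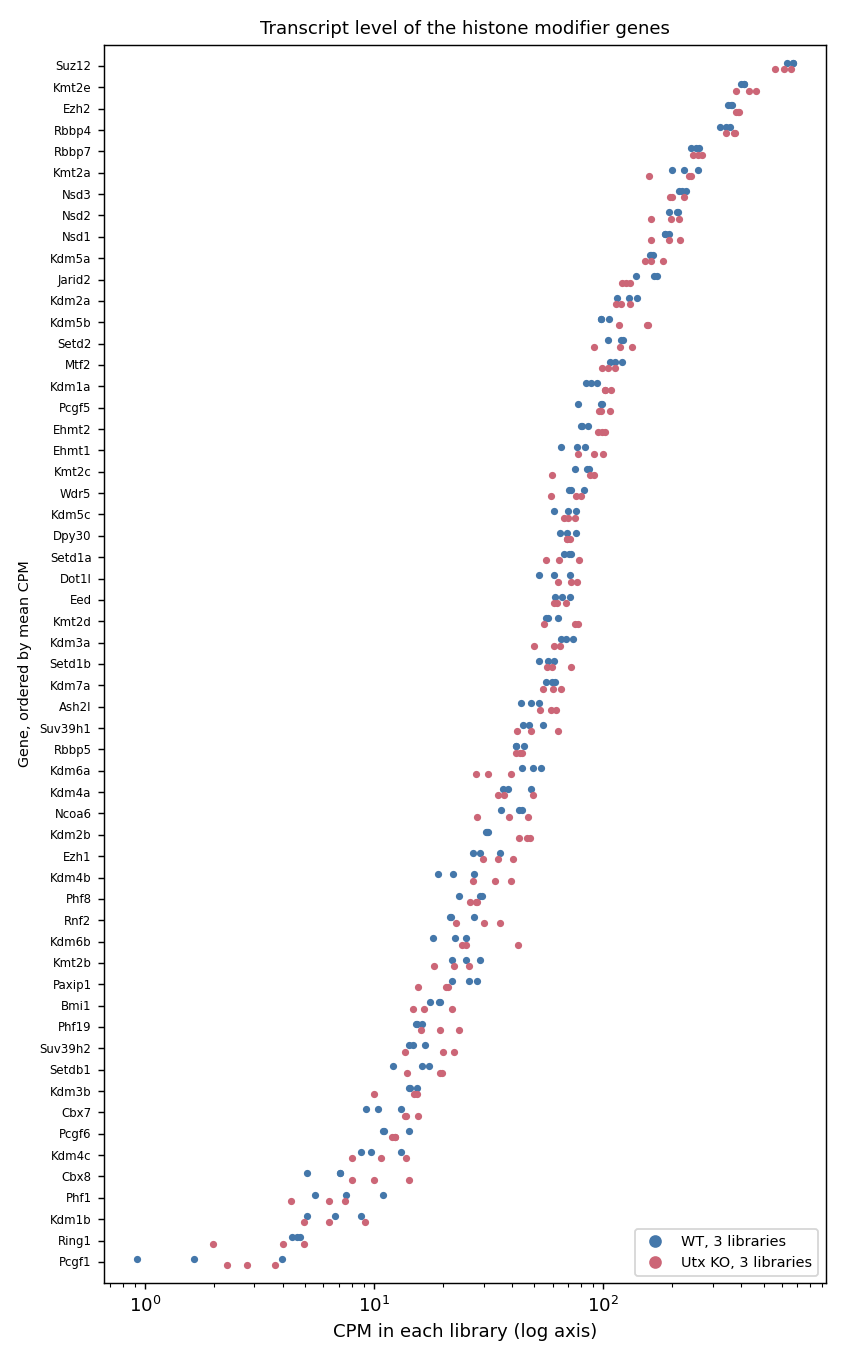
CPM of each of the 57 genes (log axis) in the 3 WT and 3 Utx KO libraries, ordered by mean level, 1 point per library. Suz12, Kmt2e, Ezh2 and Rbbp4 are at the top, and Ring1 and Pcgf1 at the bottom, and for most genes the WT and Utx KO points are interleaved.

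The RNA of the targeted gene was reduced and not lost. Kdm6a (chromosome X, bases 18162575 to 18279936 of GRCm38, plus strand) stood at 44.3, 49.3 and 53.6 CPM across WT and 27.8, 39.4 and 31.5 CPM across Utx KO. All Utx KO libraries lay below all WT libraries. These values rest on 317 reads in WT and 190 in Utx KO, and the Utx KO mean was 0.671 of the WT mean. The log2 fold change was −0.57 (SE 0.15, 95% interval −0.88 to −0.27, limma adjusted p = 0.0123). A 3' tag outside the deleted part checks nothing, and the labels do not say which part was deleted, so the remaining reads do not test the labels. The call was lost without WT replicate 2 (adjusted p = 0.0521), WT replicate 3 (0.0710) or Utx KO replicate 1 (0.0526) and with DESeq2 (0.0985), the lowest of 18 alternatives being 0.00510.

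Kdm6b, the other H3K27 demethylase, measured 22.5, 18.0 and 25.2 CPM for WT, then 25.0, 42.3 and 24.1 CPM for Utx KO. Utx KO replicate 2 stood above the rest, and both other Utx KO values fell within the WT range. The log2 fold change of 0.42 (SE 0.20, 95% interval 0.01 to 0.84) did not pass after adjustment (limma adjusted p = 0.211), and it was 0.17 without Utx KO replicate 2. In the same libraries the ratio of Kdm6b to Kdm6a was 0.509, 0.364 and 0.469 in WT and 0.900, 1.07 and 0.765 in Utx KO. Every Utx KO library thus had a higher ratio than every WT library, with means of 0.448 ± 0.0746 and 0.912 ± 0.154 (SD, n = 3). The ratio takes in the fall of Kdm6a. The sum of both H3K27 demethylases was 66.8 to 78.8 CPM in WT and 52.8 to 81.7 CPM in Utx KO, and overlapped. Kdm6b overlaps the antisense gene Kdm6bos, whose reads cannot be told apart without strand. Uty, the paralog on the Y chromosome, had a listed value of 0 throughout.

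The promoter windows of the genes that fell are shown as sequence context, from RefSeq (GRCm38.p6). Each is the 250 bases before the most upstream listed start, 5′ to 3′ on the gene's strand, with CG dinucleotides in capitals. Kdm6a is at chrX:18162325-18162574 and Jarid2 at chr13:44730524-44730773, both on the plus strand. The Jarid2 window lies inside the longer GENCODE gene, in none of its exons.
Kdm6a: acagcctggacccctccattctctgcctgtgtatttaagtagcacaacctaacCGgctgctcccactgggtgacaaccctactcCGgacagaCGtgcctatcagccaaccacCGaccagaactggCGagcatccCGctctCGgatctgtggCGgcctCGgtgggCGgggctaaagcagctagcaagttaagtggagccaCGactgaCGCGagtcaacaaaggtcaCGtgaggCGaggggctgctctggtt
Jarid2: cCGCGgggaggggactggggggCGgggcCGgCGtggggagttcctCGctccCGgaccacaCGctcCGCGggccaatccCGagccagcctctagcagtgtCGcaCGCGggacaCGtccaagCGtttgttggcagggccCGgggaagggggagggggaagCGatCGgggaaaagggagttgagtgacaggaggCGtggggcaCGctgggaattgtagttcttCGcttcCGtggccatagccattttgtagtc
The windows hold 15 and 23 CG dinucleotides. CG density matters to this gene family as background, since Kdm2b and Polycomb-like PRC2 subunits bind unmethylated CG-rich DNA. The same window held 13 CG in Kdm5b and 27 in Kdm2b, and the 4 counts interleave between rises and falls. The Kdm2b window lies inside the longer GENCODE gene, with 207 of the 250 bases in exons. Over the 44 genes of the list with a listed promoter the median was 22 CG, and 93.2% had 10 or more. Among 8425 promoters of tested genes the median was 17 and 77.2% had 10 or more.

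Jarid2 recruits PRC2 to chromatin and modulates its activity, and was the only gene of the PRC2 and PRC1 groups of the list to pass the test. Jarid2 (chromosome 13) gave 139, 166 and 171 CPM (WT) against 120, 125 and 130 CPM (Utx KO). The groups did not overlap, and WT replicate 1 was the WT library nearest to Utx KO. Jarid2 fell by 0.33 on the log2 scale (SE 0.09, 95% interval −0.52 to −0.15, limma adjusted p = 0.0139), to 0.789 of the WT mean. The call was lost without WT replicate 2 (adjusted p = 0.0916), without WT replicate 3 (0.0916) and with DESeq2 (0.0739), and 0.00410 was the lowest value of the 18 alternatives.

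The other PRC2 accessory subunits did not pass. Mtf2, a Polycomb-like protein that brings PRC2 to CG-rich DNA, stood at 107, 120 and 113 CPM across WT and 105, 98.2 and 112 CPM across Utx KO, so that its groups overlapped (log2 fold change −0.11, 95% interval −0.30 to 0.08, limma adjusted p = 0.544). Its relative Phf19 measured 16.2, 15.2 and 15.3 CPM for WT, then 23.4, 19.4 and 16.1 CPM for Utx KO (log2 fold change 0.30, 95% interval −0.12 to 0.72, limma adjusted p = 0.420). The ratio of Mtf2 to Phf19 was 7.29 ± 0.652 in WT and 5.51 ± 1.32 in Utx KO (SD, n = 3), with overlapping groups. Phf1, the third Polycomb-like protein, had a log2 fold change of −0.34 with an interval from −0.98 to 0.31 at a mean of 7.01 CPM.

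The 6 core PRC2 genes gave 0 rises and 0 falls with limma, beside 10.8% called over all tested genes. An unadjusted p under 0.05 was reached by 0 of the 6, against 22.7% of all tested genes. Neither edgeR nor DESeq2 called any of the 6. Ezh2, the main methyltransferase of dividing cells, gave 360, 350 and 363 CPM (WT) against 381, 387 and 389 CPM (Utx KO). Each Utx KO library was above each WT library, but by a small step: the log2 fold change was 0.11 (95% interval −0.01 to 0.23, limma adjusted p = 0.275). Suz12 stood at 671, 670 and 631 CPM across WT and 560, 656 and 614 CPM across Utx KO (−0.11, 95% interval −0.23 to 0.01, limma adjusted p = 0.265). Ezh1, the methyltransferase more typical of resting cells, measured 26.9, 29.0 and 35.6 CPM for WT, then 29.8, 34.8 and 40.1 CPM for Utx KO. The ratio of Ezh2 to Ezh1 was 11.9 ± 1.59 in WT and 11.2 ± 1.54 in Utx KO (SD, n = 3), and the groups overlapped. Rbbp4 and Rbbp7 are histone-binding subunits shared with other complexes. Rbbp4 gave 342, 357 and 324 CPM (WT) against 372, 377 and 343 CPM (Utx KO) (0.09, 95% interval −0.04 to 0.22), and Rbbp7 stood at 261, 253 and 242 CPM across WT and 260, 246 and 271 CPM across Utx KO (0.04, 95% interval −0.10 to 0.18). Their ratio, Rbbp7 to Rbbp4, was 0.739 ± 0.0274 in WT and 0.713 ± 0.0700 in Utx KO (SD, n = 3). Eed, which binds the methylated histone tail, had a log2 fold change of −0.05 (95% interval −0.28 to 0.19). For 5 of the 6 core genes the 95% interval lay within ±0.3, the exception being Ezh1, the lowest of them at a mean of 32.7 CPM. The same held for 1484 of all 10590 tested genes. The median mean level was 304 CPM for the core genes and 24.2 CPM for all tested genes, so the counts compare genes of unlike level. As many of these genes are known to follow cell division, 20 proliferation markers were read beside them. Of the 20 markers, 0 rose and 3 fell (Bub1, Pcna and Mcm4), where 5.28% of all tested genes rose and 5.51% fell. The markers summed to 7811 to 7875 CPM for WT against 7177 to 7964 CPM for Utx KO. Top2a alone held 2621 to 3113 CPM of these sums. The 20 markers had a median log2 fold change of −0.09, beside 0.01 over all tested genes, and 7 of them were higher in Utx KO. Their part in the PRC2 values was not tested.

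**Figure D2:**
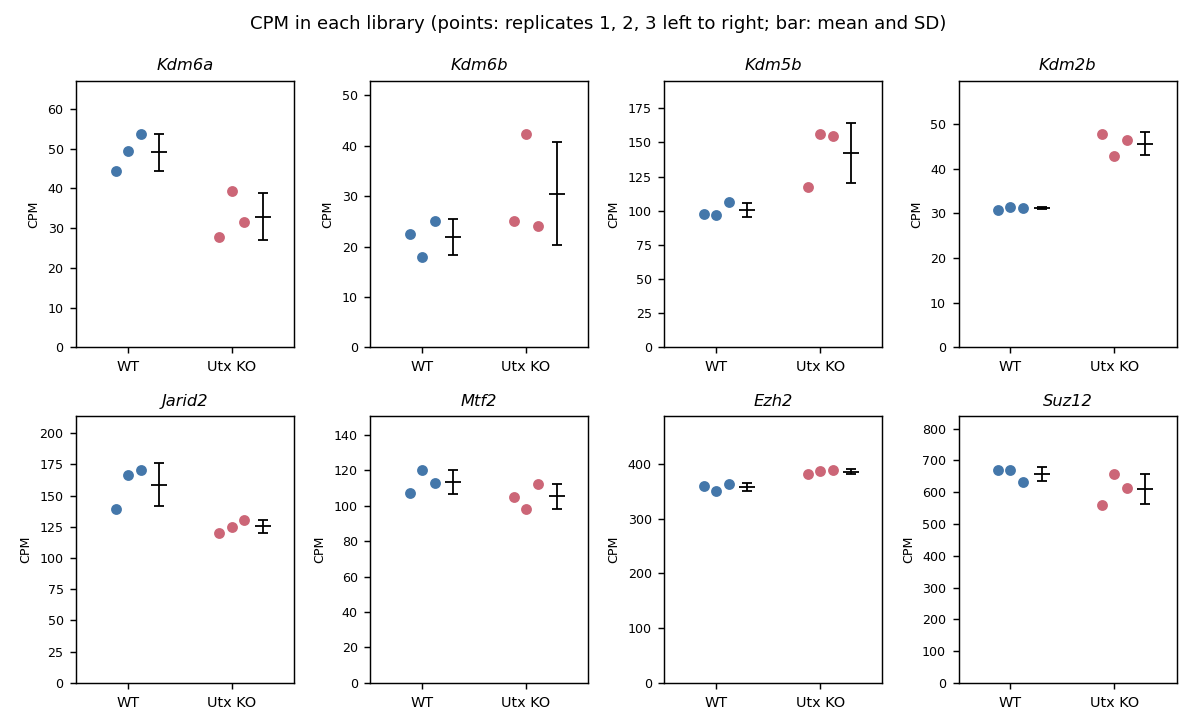
CPM in each library for the H3K27 demethylases Kdm6a and Kdm6b, the demethylases that rose (Kdm5b, Kdm2b) and 4 PRC2 genes, with points for replicates 1, 2 and 3 and a bar for the mean and SD (n = 3). Kdm6a and Jarid2 are lower and Kdm5b and Kdm2b higher in all 3 Utx KO libraries, while Kdm6b has a single high Utx KO library at 42.3 CPM and Mtf2 and Suz12 overlap.

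Methylation of H3K4 is set by the COMPASS methyltransferases and by demethylases that include the Kdm1 and Kdm5 families. Kdm5b, which removes methyl groups from H3K4, showed the lowest adjusted p of the list. It measured 97.7, 97.2 and 106 CPM for WT, then 117, 156 and 154 CPM for Utx KO. Utx KO replicate 1 was nearer to WT than the other Utx KO libraries, and the groups did not overlap. Kdm5b (chromosome 1) rose by 0.49 on the log2 scale (SE 0.10, 95% interval 0.28 to 0.70, limma adjusted p = 0.00183), to 1.42 times the WT mean. It was called under each of the 18 alternatives, with adjusted p from 2.37e-05 to 0.0219.

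Its paralogs Kdm5a and Kdm5c did not pass the test. Kdm5a gave 165, 160 and 161 CPM (WT) against 152, 183 and 161 CPM (Utx KO) (log2 fold change 0.02, 95% interval −0.14 to 0.19, limma adjusted p = 0.913). The X-linked Kdm5c stood at 70.4, 60.8 and 76.1 CPM across WT and 67.5, 75.4 and 69.8 CPM across Utx KO (0.04, 95% interval −0.19 to 0.27, limma adjusted p = 0.887). The ratio of Kdm5c to Kdm5a was 0.426 ± 0.0467 in WT and 0.430 ± 0.0164 in Utx KO (SD, n = 3). The interval of Kdm5b (from 0.28) began above the upper ends of those of Kdm5a and Kdm5c, but the difference between paralogs was not tested.

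Kdm2b, a demethylase and the CG-binding subunit of a PRC1 variant with Pcgf1, rose from 30.8, 31.3 and 31.2 CPM in WT to 47.7, 42.8 and 46.3 CPM in the Utx KO libraries. The WT libraries lay within 1 CPM of each other and all Utx KO libraries stood clear of them. These values rest on 203 reads in WT (78, 68 and 57) and 270 in Utx KO. At so few reads the closeness of the WT values is not a measure of precision. The log2 fold change was 0.54 (SE 0.14, 95% interval 0.25 to 0.82, limma adjusted p = 0.0114), or 1.47 times the WT mean, and DESeq2 alone of 18 alternatives ended the call (adjusted p = 0.133, the lowest being 0.00843). Kdm2b (chromosome 5) shares exon sequence with Rnf34 on the opposite strand and with the gene model Gm44574 on its own strand, and 21.4% of its 3' end sequence occurs in another gene model, so reads of these genes may be shared and its value is uncertain. Rnf34 itself ranged over 45.6 to 48.7 CPM (WT) and 38.9 to 50.8 CPM (Utx KO) (log2 fold change −0.09, limma adjusted p = 0.759). Kdm2a, the paralog of Kdm2b, had a log2 fold change of −0.07 (95% interval −0.27 to 0.12).

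Where 10.8% of all tested genes passed, 2 of the 14 demethylases outside the H3K27 pair passed and 12 did not. Kdm4b, an H3K9 and H3K36 demethylase chosen for mention after its values were seen, came closest of these, with 22.1, 18.9 and 27.4 CPM (WT) against 27.01, 33.7 and 39.5 CPM (Utx KO). Its log2 fold change of 0.53 was close to that of Kdm2b, but its libraries were more spread and the groups just overlapped (limma adjusted p = 0.0629). Kdm4b passed with a robust variance estimate (0.0439), without WT replicate 3 (0.0365) and without Utx KO replicate 1 (0.0229). Kdm1a (LSD1), an H3K4 demethylase of corepressor complexes, ranged over 83.9 to 93.6 CPM (WT) and 101 to 108 CPM (Utx KO) (0.22, limma adjusted p = 0.148), without overlap. Kdm3a, an H3K9 demethylase, ranged over 65.7 to 73.9 CPM (WT) and 49.7 to 64.9 CPM (Utx KO) (−0.25, limma adjusted p = 0.216), also without overlap. Kdm1b, Kdm3b, Kdm4a, Kdm4c, Kdm7a and Phf8 had log2 fold changes between −0.14 and 0.03.

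COMPASS genes gave 0 rises and 0 falls among 13 with limma, beside 10.8% called over all tested genes. An unadjusted p under 0.05 was reached by 2 (Ash2l and Paxip1), or 15.4%, against 22.7% of all tested genes. Neither edgeR nor DESeq2 called any COMPASS gene. The median log2 fold change of the 13 genes was −0.07 and the range ran from −0.40 to 0.27. Kmt2e, a family member with the highest level of this group, measured 412, 399 and 410 CPM for WT, then 379, 463 and 430 CPM for Utx KO (0.06, 95% interval −0.08 to 0.19, limma adjusted p = 0.684). Kmt2d, in whose complex Utx resides, gave 63.3, 57.6 and 56.4 CPM (WT) against 54.8, 77.7 and 75.4 CPM (Utx KO) (0.21, limma adjusted p = 0.351). Utx KO replicate 1 was the lowest and the others the highest of the 6 libraries, and without replicate 1 of Utx KO the value was 0.37 (limma adjusted p = 0.0488). Its paralog Kmt2c stood at 85.0, 86.6 and 75.5 CPM across WT and 59.6, 87.4 and 91.4 CPM across Utx KO (−0.07, 95% interval −0.34 to 0.19, limma adjusted p = 0.805). The ratio of Kmt2d to Kmt2c was 0.744, 0.665 and 0.746 in WT and 0.920, 0.889 and 0.824 in Utx KO. All Utx KO libraries were thus above all WT libraries, and neither gene passed alone. Both genes were lowest in Utx KO replicate 1, and the difference in ratio was not tested.

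Of the subunits that COMPASS methyltransferases share or recruit, Paxip1 (PTIP) and Ncoa6 belong to the same Kmt2c and Kmt2d complexes as Utx. Paxip1 measured 28.1, 25.8 and 21.9 CPM for WT, then 15.5, 20.6 and 21.0 CPM for Utx KO, without overlap but with a limma adjusted p of 0.211 (log2 fold change −0.40, 95% interval −0.79 to −0.01). Ncoa6 had a log2 fold change of −0.13 (95% interval −0.47 to 0.21). The core subunit Ash2l gave 43.9, 52.5 and 48.1 CPM (WT) against 52.8, 62.3 and 59.3 CPM (Utx KO) (0.27, 95% interval 0.01 to 0.52, limma adjusted p = 0.201), also without overlap. Wdr5, Rbbp5 and Dpy30, the other core subunits, had log2 fold changes of −0.07, 0.01 and 0.00.

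**Figure D3:**
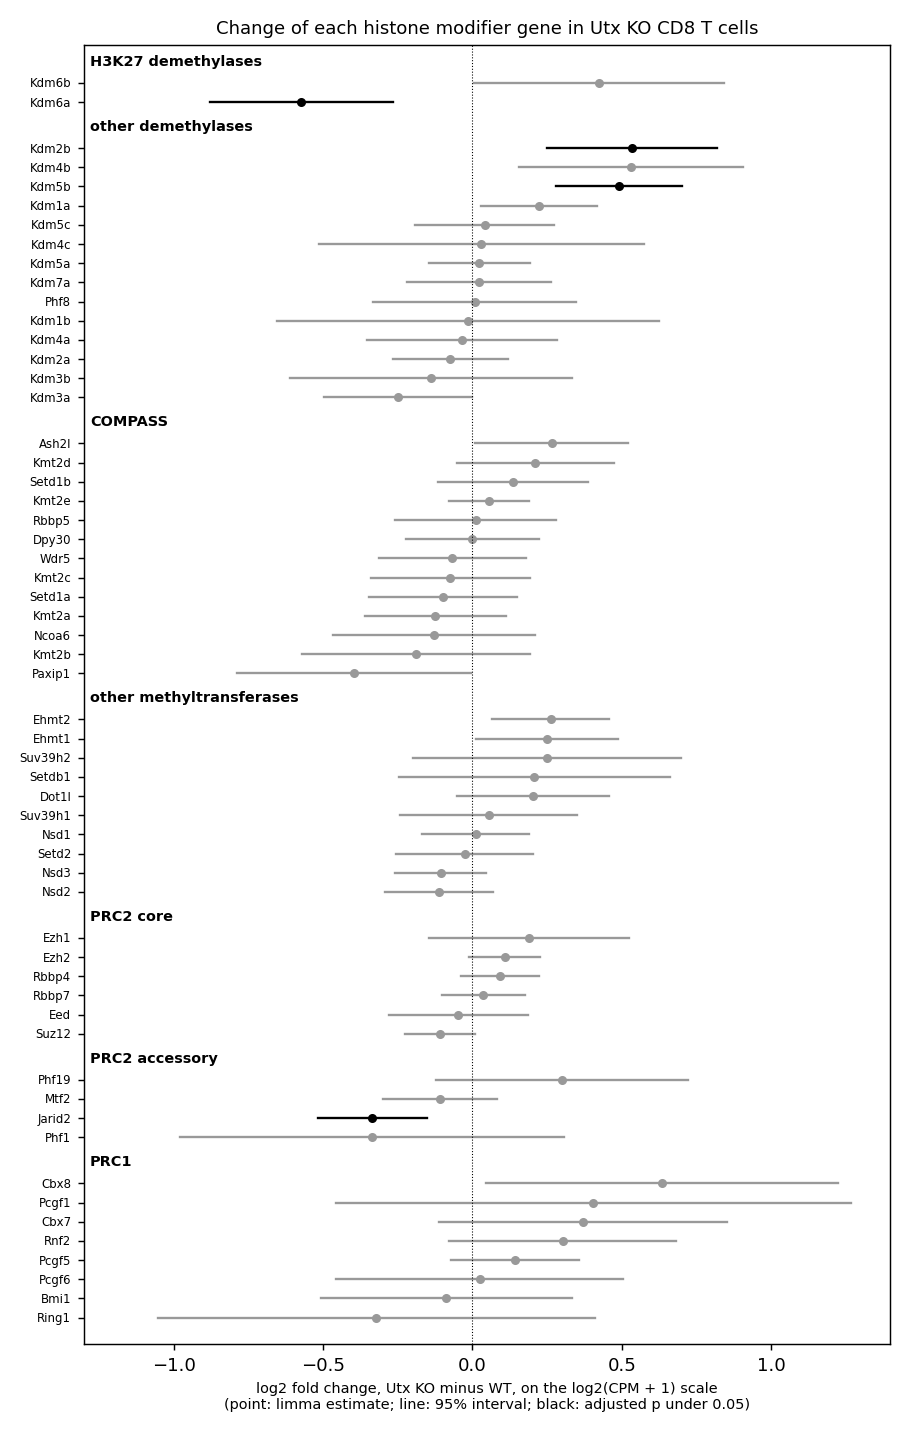
Log2 fold change (Utx KO minus WT, log2(CPM + 1) scale) of each of the 57 genes by functional group, with 95% intervals from the limma fit and genes with an adjusted p under 0.05 in black. Kdm6a and Jarid2 lie left of 0 and Kdm2b and Kdm5b right of it, and the low genes Pcgf1 and Ring1 have the widest intervals.

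Methyltransferases of H3K9, H3K36 and H3K79 gave 0 rises and 0 falls among 10 with limma, beside 10.8% called over all tested genes. Among these, Ehmt2 and Ehmt1 (2 of 10) had an unadjusted p under 0.05, against 22.7% of all tested genes. Both edgeR and DESeq2 called none of the 10. Ehmt2 (G9a) and its partner Ehmt1 (GLP), which form the main H3K9 dimethylating enzyme, had similar fold changes. Ehmt2 stood at 80.7, 79.7 and 85.4 CPM across WT and 101, 98.8 and 95.1 CPM across Utx KO, without overlap (log2 fold change 0.26, 95% interval 0.07 to 0.46, limma adjusted p = 0.0849). Ehmt1 measured 65.2, 77.0 and 83.2 CPM for WT, then 77.5, 99.95 and 91.4 CPM for Utx KO (0.25, limma adjusted p = 0.190), with overlap. The H3K36 methyltransferases Nsd1, Nsd2, Nsd3 and Setd2 had log2 fold changes of 0.01, −0.11, −0.11 and −0.02. Nsd3, the most abundant of this group, gave 230, 214 and 220 CPM (WT) against 199, 224 and 196 CPM (Utx KO) (95% interval −0.26 to 0.05, limma adjusted p = 0.439). Dot1l, the H3K79 enzyme, Setdb1, Suv39h1 and Suv39h2 had values of 0.20, 0.21, 0.06 and 0.25.

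The 8 genes grouped under PRC1, where Kdm2b is not counted, gave 0 rises and 0 falls with limma, beside 10.8% called over all tested genes. Only Cbx8 had an unadjusted p under 0.05 (12.5% of the group, against 22.7% of all tested genes). Neither edgeR (which did not test Ring1 and Pcgf1) nor DESeq2 called any of the 8. The PRC1 genes were also the lowest group, with a median mean level of 12.4 CPM and a median half-width of the 95% interval of 0.48. Cbx7 and Cbx8 are alternative readers of H3K27 methylation in PRC1. Cbx8 stood at 7.12, 5.07 and 7.11 CPM across WT and 9.93, 7.996 and 14.2 CPM across Utx KO (log2 fold change 0.63, 95% interval 0.05 to 1.22, limma adjusted p = 0.181). Cbx7 measured 13.0, 9.22 and 10.4 CPM for WT, then 15.5, 13.7 and 13.6 CPM for Utx KO (0.37, 95% interval −0.11 to 0.85, limma adjusted p = 0.376). Neither pair of groups overlapped. Pcgf5, the most abundant PRC1 gene of the list, gave 97.3, 77.4 and 98.5 CPM (WT) against 96.1, 107 and 97.6 CPM (Utx KO) (0.14, limma adjusted p = 0.462). The ubiquitin ligases Rnf2 and Ring1 had log2 fold changes of 0.30 and −0.32, with intervals from −0.08 to 0.68 and from −1.05 to 0.41, and Bmi1, Pcgf6 and Pcgf1 had values of −0.09, 0.02 and 0.41.

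A wider list of 78 further genes, chosen by their role in these pathways, had 76 in the files and 70 tested. Of these, 6 rose and 1 fell, or 10.0% in all, beside the background of 10.8%. The fall was in Aebp2, a PRC2 subunit that works in the same form of the complex as Jarid2. Aebp2 stood at 156, 141 and 137 CPM across WT and 108, 117 and 127 CPM across Utx KO, without overlap (log2 fold change −0.30, SE 0.09, limma adjusted p = 0.0287). DESeq2 ended the call (adjusted p = 0.126), as did leaving out replicate 1 (0.167) or 2 (0.0705) of WT or replicate 1 (0.0991) or 2 (0.0718) of Utx KO, against 0.0155 at the lowest with the other settings.

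Among the rises were 2 PRC1 subunits. Phc1, a Polyhomeotic protein that clusters PRC1 on chromatin, measured 14.6, 12.9 and 10.4 CPM for WT, then 21.1, 25.1 and 27.2 CPM for Utx KO (log2 fold change 0.90, SE 0.21, limma adjusted p = 0.00446; DESeq2 adjusted p = 0.0592). Cbx6, another Polycomb chromodomain protein, gave 131, 123 and 118 CPM (WT) against 154, 162 and 183 CPM (Utx KO) (0.42, SE 0.09, limma adjusted p = 0.00174), and the overlapping gene Npcd holds 20.2% of its last bases. The largest fold change among the wider list genes that passed was in Smyd3, a SET and MYND domain methyltransferase, which rose from 11.9, 8.76 and 14.2 CPM to 25.0, 26.3 and 30.9 CPM (1.19, SE 0.21, limma adjusted p = 0.000362). For each of these 3 genes all Utx KO libraries lay above all WT libraries.

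The remaining rises were in Setd3, Setd7 and Trim28. Setd3, an actin histidine methyltransferase, averaged 84.0 ± 3.31 CPM (WT) and 105 ± 6.34 CPM (Utx KO; SD, n = 3), with a log2 fold change of 0.32 (limma adjusted p = 0.0289), and 25.9% of its 3' end sequence occurs in other gene models. Setd7, which can methylate H3K4, was at 43.2 ± 2.63 and 58.7 ± 7.92 CPM (SD, n = 3; 0.43, limma adjusted p = 0.0344). Trim28 (KAP1), a corepressor that recruits Setdb1, was at 194 ± 7.28 and 227 ± 6.71 CPM (SD, n = 3; 0.22, limma adjusted p = 0.0404), and lost its call with TMM scaling (0.0511). With DESeq2 the adjusted p was 0.237 for Setd3, 0.248 for Setd7 and 0.229 for Trim28. Leaving out replicate 1 or 2 of WT or replicate 2 or 3 of Utx KO ended all 3 calls (limma adjusted p from 0.0502 to 0.177), and leaving out WT replicate 3 ended that of Setd3 (0.0881). The demethylase gene Hr was at 0 in all WT libraries and at 1.19 to 2.28 CPM in Utx KO, near the 3-read limit. Hr met the low-value filter only through the Utx KO libraries, where it was higher, so its test cannot serve as support. It did not pass (limma adjusted p = 0.0850), except when low values were not filtered.

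**Figure D4:**
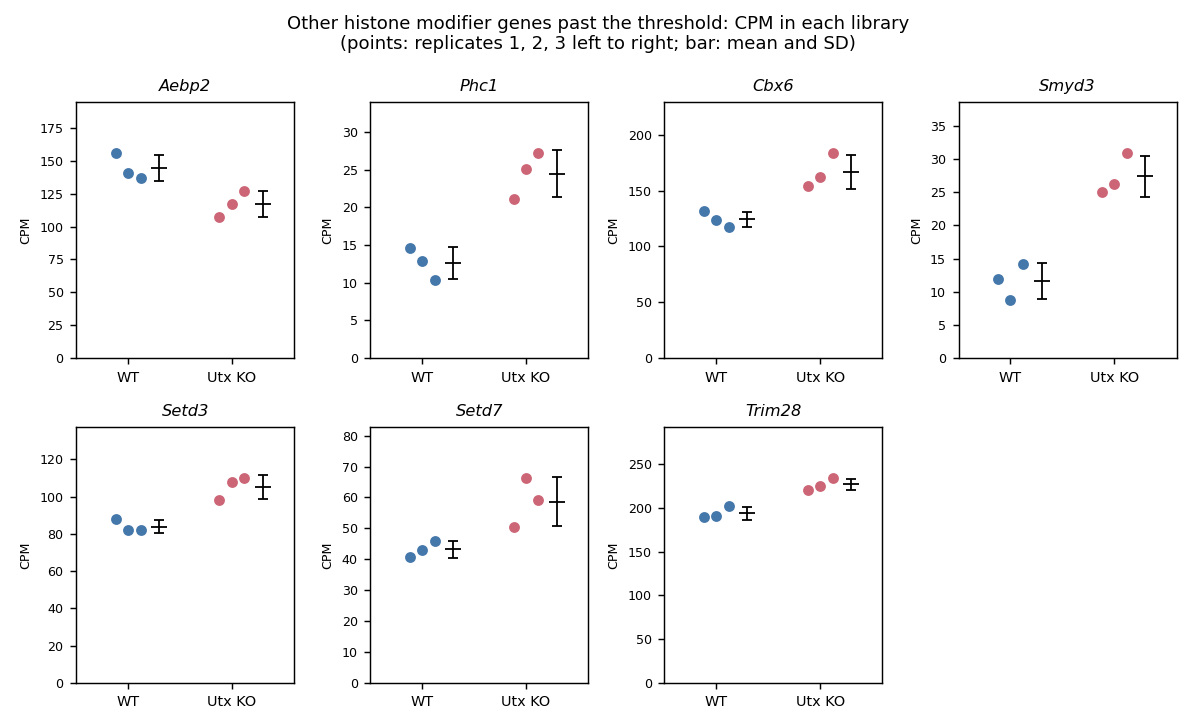
CPM in each library for the 7 genes of the wider list that passed the test, with points for replicates 1, 2 and 3 and a bar for the mean and SD (n = 3). Aebp2 is lower in all 3 Utx KO libraries, and Phc1, Cbx6, Smyd3, Setd3, Setd7 and Trim28 are higher in all 3.

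The summed level of the gene family ranged more widely over the Utx KO libraries than over the WT libraries. Summed over the 57 genes, the level was 5296 to 5376 CPM in WT, and 4998, 5714 and 5523 CPM in the Utx KO libraries, so that the Utx KO libraries lay on both sides of WT. Utx KO replicate 1 held the lowest value of the 6 libraries for 20 of the 57 genes (35.1%), where it was the lowest for 17.1% of all tested genes. These 20 included Kmt2a, Kmt2b, Kmt2c, Kmt2d, Kmt2e, Setd1a, Setd2, Nsd1 and Nsd2, and also Kdm6a and Jarid2. Kmt2a (MLL1), for example, stood at 259, 226 and 200 CPM across WT and 158, 240 and 237 CPM across Utx KO. Utx KO replicates 2 and 3 each held the highest value for 16 genes (28.1%), against 18.7% and 18.1% of all tested genes. Without Utx KO replicate 1 the counts were 4 rises (Kdm5b, Kdm2b, Kdm4b and Kmt2d) and 1 fall (Jarid2). That fit called 5 of the 57 genes, beside 1056 of 10430 tested genes (10.1%, with 477 rises and 579 falls).

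**Figure D5:**
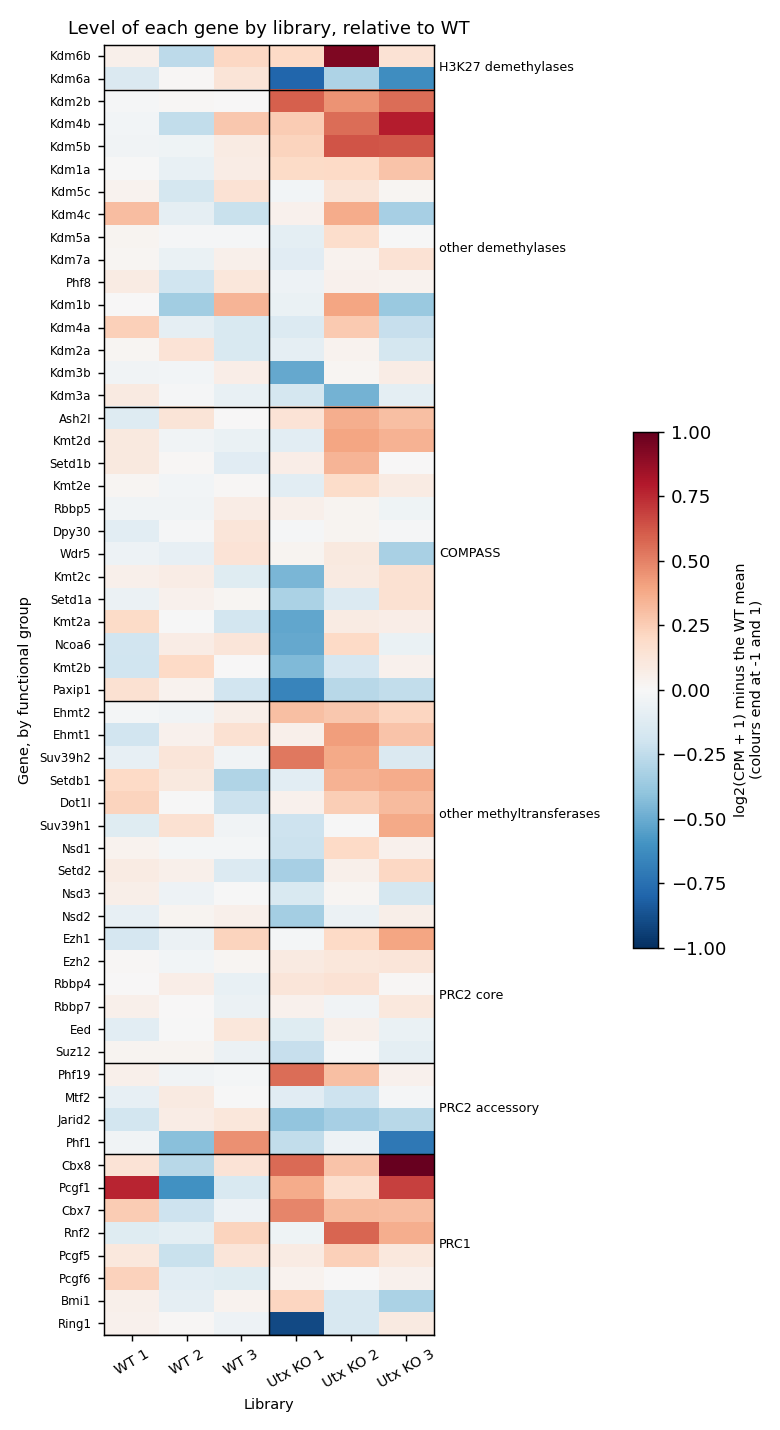
Level of each of the 57 genes in each library as log2(CPM + 1) minus the WT mean, by functional group, with red above and blue below WT. Kdm2b and Kdm5b are red and Kdm6a and Jarid2 blue in all 3 Utx KO libraries, and Kmt2a and Kmt2c are blue in replicate 1 but not in replicates 2 and 3 of Utx KO, and also in WT replicate 3.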

How the data were processed

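Each library has 1 deposited table of CPM values for 25655 Ensembl genes, made by the authors from QuantSeq 3' mRNA libraries (500 ng of total RNA, per the labels' protocols); every column sums to 1000000. The submitters' processing notes name GRCm38 and mm10; for aligner, counting tool and strand handling: not given in the sources used here. All values above 0 were whole multiples of a single read (100% of values, tolerance 0.001 reads), and the recovered reads served the count-based alternatives. Symbols were matched for 25600 identifiers.

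The test was limma-trend (limma 3.58.1, R 4.3.3) on log2(CPM + 1), fitted to genotype alone, over genes with at least 1 CPM in 3 libraries, two-sided, with Benjamini-Hochberg adjustment and a threshold of 0.05. edgeR 4.0.16 tested the recovered reads, as did DESeq2 1.42.0 and limma-voom (edgeR called 1106 of 8832 genes, and DESeq2, run on all genes with reads and with its own default filtering, 551 of 13464). These tests were tried on simulated counts, with the same added spread for every gene and changes only in genes that were not low. Real genes differ in spread, so that trial does not show how the tests behave on these data. The members and lists were chosen with earlier results of these data known. Genes given library by library are Kdm6a and Kdm6b, those past the threshold, the lowest adjusted p and the highest mean of each functional group, and fixed pairs; Kdm4b, Kdm1a, Kdm3a, Paxip1, Ehmt1, Kmt2a and Hr were added after their values were seen. The promoter start used was the most upstream listed, chosen after other starts had been looked at. Positions come from GENCODE M21 (GRCm38). Of the 57 genes, 3 overlap an exon of a same-strand gene and 24 an exon of an antisense gene. All 50-base pieces of the last 300 bases of protein-coding transcripts were searched in other genes, and 2 (Kdm2b and Pcgf1) shared at least 20%.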

Additional observations from a re-analysis of the deposited data

How the results depend on the processing

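Over 18 alternatives (pseudocount, low-value filter, scaling, variance model, count tests, replicate block, leaving out each replicate) the count of listed genes that rose was 2, moving to 3 with a robust variance, to 1 with DESeq2 and to between 2 and 4 when a replicate was left out. The count that fell was 2, moving to 0 with DESeq2 (5 of the 57 genes had an unadjusted p under 0.05 there) and to between 0 and 2 without a replicate (0 without WT replicate 2 or 3, 1 without Utx KO replicate 1). In the wider list the rises moved from 6 to 2 with DESeq2 and to between 3 and 7 without a replicate, and the falls from 1 to 0 with DESeq2 and to between 0 and 2 without a replicate. The log2 fold change of Kdm6a was −0.59 with DESeq2, no longer past the threshold, and −0.71 to −0.46 without a replicate. Near-zero values changed sign when a replicate was left out: Kdm5a (−0.051 to 0.083), Kdm5c (−0.046 to 0.11; −0.0031 without Utx KO replicate 2), Kmt2c (−0.19 to 0.12) and Kmt2e (−0.011 to 0.13). The cause was not tested; leaving out a replicate also leaves fewer samples. Over all genes, 1142 of 10590 were called; DESeq2, which also took in more genes, called 551 of 13464, and the fit without WT replicate 2 called 747 of 10474. Replicate numbers showed no sign of pairing the samples: deviations of same-numbered libraries correlated at 0.006, −0.003 and −0.010. Libraries of different number gave −0.022 to 0.023. Values near 0 at this depth do not exclude a shared day or batch, which the labels do not state. A replicate block gave 1065 calls, 2 rises and 2 falls among the 57 genes and a Kdm6a log2 fold change of −0.57 and Kdm6b 0.42, and 5 rises and 1 fall in the wider list (Trim28 lost, adjusted p = 0.0522). Depth limits genes under about 10 CPM, such as Pcgf1 and Ring1.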
